A study of Mus musculus with 4 samples.

Results

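The collagen genes of the mouse were described in 4 libraries of bone marrow-derived macrophages, the phagocytes grown from marrow precursors in culture. They were taken as the protein-coding genes whose symbol consists of Col, a number, the letter a and a number, and 44 of the 34745 gene IDs in the table met this. Of these 44 genes, 30 had 10 or more counts summed over the 4 libraries, 8 had 1 to 9 counts, and 6 had 0. The edgeR test was run on the 27 that passed its filter on low counts.

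Collagens are matrix proteins built from chains with long glycine-rich repeats that wind into a triple helix. Fibrillar collagens form the cables of connective tissue, collagen IV the net of basement membranes, collagen VI beaded filaments around cells, and the FACIT collagens (fibril-associated, with interrupted helices) sit on the surface of fibrils. Fibroblasts and related stromal cells are the main makers of the interstitial collagens, while macrophages are better known for taking up and degrading them, although collagen transcripts have been described in macrophages as well.

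Of the 4 libraries of C57BL/6 macrophages, 2 came from cells given Acly-E14 siRNA and 2 from cells given control siRNA, and all cells had lipopolysaccharide (LPS) as well. The labels do not spell out E14, give no age, LPS dose or time, and leave unsaid if the 2 libraries of a condition are from different cultures or mice. The p-values below therefore measure only the spread between these libraries, which may be technical. The libraries held 21023197 to 21837806 counts. Acly, the targeted gene for ATP citrate lyase, was at 118 and 127 CPM (counts scaled to a common library size with TMM factors) in Acly-E14 siRNA libraries and at 158 and 154 CPM in control libraries, 0.783 of the control level (edgeR adjusted p = 0.0086). All 10 macrophage markers examined were detected, and together they summed to 8583 and 9120 CPM in Acly-E14 siRNA libraries, against 9431 and 8679 CPM in control libraries. The largest part of that sum was Lyz2, at 4399 and 4804 CPM against 4931.5 and 4550 CPM in controls. The sum hides opposite moves, as 2 of the 10 were called higher and 5 lower at an edgeR adjusted p under 0.05.

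Collagen transcripts took a larger share of the RNA in the Acly-E14 siRNA libraries. They made up 0.318% and 0.404% of all counts there, against 0.103% and 0.1598% in control libraries, which is 0.361% ± 0.0608 and 0.131% ± 0.0404 (SD, n = 2 each), a ratio of 2.75. The groups did not overlap, but with 2 libraries against 2 an exact permutation test cannot give a two-sided p below 0.33. Without Col1a1, Col1a2 and Col3a1 the means were 0.127% and 0.0631%, a ratio of 2.01. The mix shifted too. Both chains of collagen I together held 60.2% and 59.6% of the collagen counts in Acly-E14 siRNA libraries and 47.0% and 47.1% in control libraries, whereas the collagen IV genes held 12.4% and 12.8% against 18.8% and 18.8%.

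Gene by gene, 15 of the 27 tested collagens were higher in Acly-E14 siRNA libraries, 3 were lower and 9 were not called at an edgeR adjusted p under 0.05 over the 13108 genes tested. Over all those genes 33.2% were called, 17.3% as higher and 15.9% as lower. The median log2 change of the 27 was 1.19, beside 0.0027 over all genes tested. Of the 27, 13 were called higher with a log2 change above 1, as were 7.49% of all genes tested. The higher genes were Col1a1, Col1a2, Col3a1, Col5a1, Col5a2, Col4a2, Col4a5, Col4a6, Col6a1, Col6a2, Col6a3, Col8a1, Col8a2, Col16a1 and Col18a1, and the lower genes were Col24a1, Col5a3 and Col23a1. Fibroblast and stroma markers moved with these rises: 9 of 12 tested were higher and 0 lower, and the 15 on that list summed to 806 and 976 CPM in Acly-E14 siRNA libraries, against 288 and 385 CPM in control libraries. In a bulk sample, more cells of a type and more RNA per cell cannot be told apart.

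**Figure D1:**
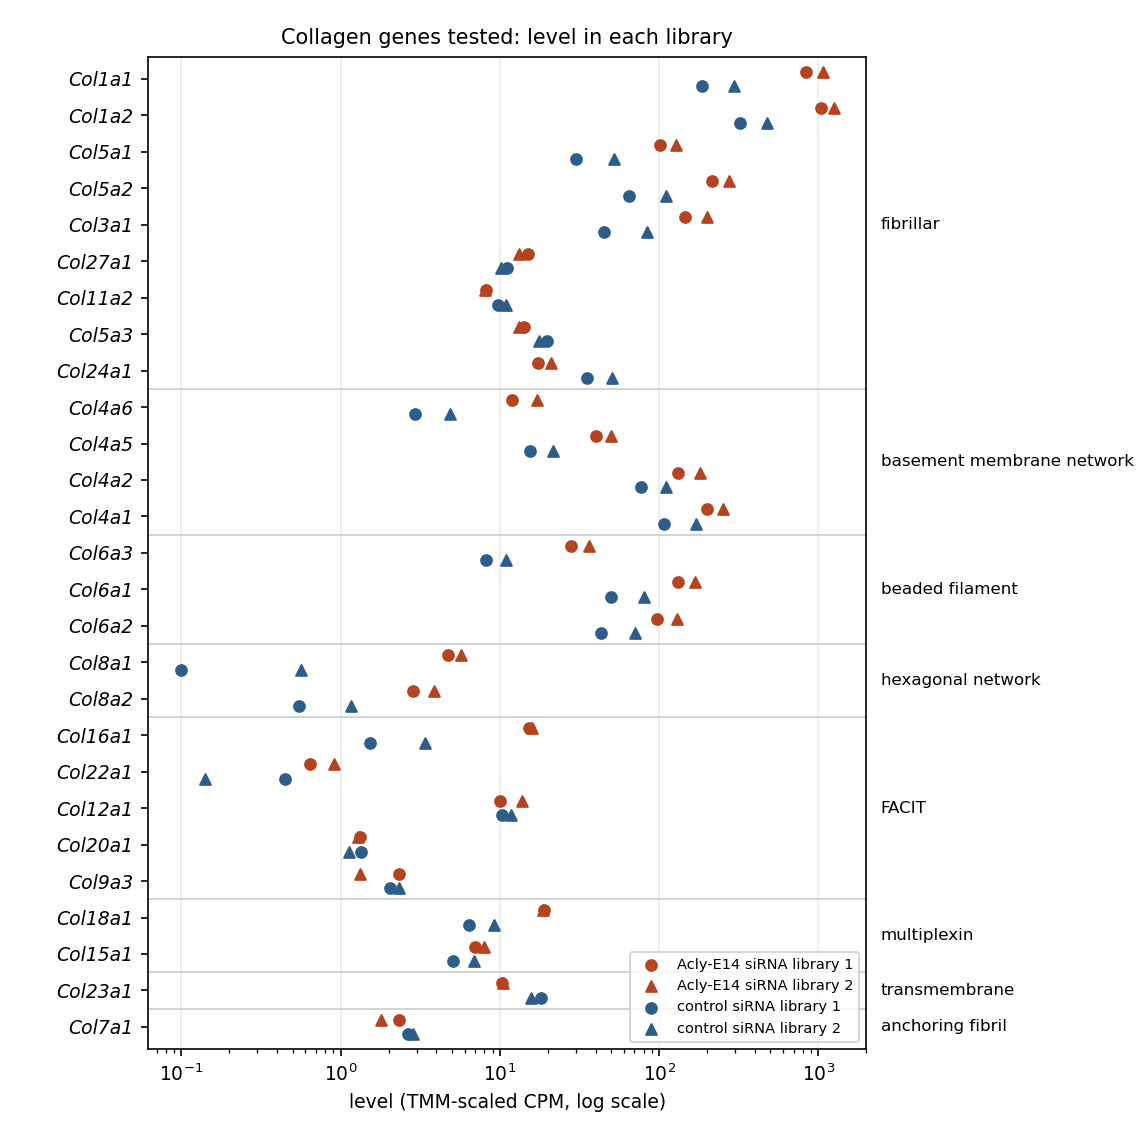
Level of each of the 27 tested collagen genes in each library, in TMM-scaled CPM on a log axis, ordered by class. Col1a2 and Col1a1 had the highest CPM in all 4 libraries, and the circle and triangle of each group show that control library 2 lay above control library 1 for all 15 genes that rose.

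The fibrillar class held the most abundant members. Col1a1 (chromosome 11, 94936224 to 94953042, plus strand) encodes the α1 chain of collagen I, the main protein of bone, skin and tendon. It was at 834 and 1073.5 CPM in Acly-E14 siRNA libraries and at 184 and 295 CPM in control libraries, a log2 change of 1.99 (SE 0.24, edgeR adjusted p = 0.0030). Its partner Col1a2 (chromosome 6, 4504814 to 4541544, plus strand), the α2 chain, was at 1036 and 1248 CPM against 320 and 475 CPM in control libraries, a log2 change of 1.52 (SE 0.19). Both Acly-E14 siRNA libraries lay well above both controls for either chain.

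Collagens III and V form mixed fibrils with collagen I, and Col3a1, Col5a1 and Col5a2 were higher too. Col3a1, typical of extensible tissue, was at 146 and 201 CPM in Acly-E14 siRNA libraries and 45.2 and 84.3 CPM in control libraries (log2 change 1.42, SE 0.30, edgeR adjusted p = 0.017). That call was lost without Acly-E14 siRNA library 2 (adjusted p = 0.064). Col5a1 and Col5a2 encode the chains of collagen V that start fibril formation and limit fibril width. Col5a1 was at 101.4 and 127 CPM against 29.9 and 52.4 CPM in controls, and Col5a2 at 215 and 273 CPM against 64.8 and 111 CPM in controls. Their log2 changes were 1.47 each (SE 0.26 and 0.25, edgeR adjusted p = 0.0095 and 0.0090).

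The other tested fibrillar genes were lower or were not called. Col24a1 (chromosome 3, 145292472 to 145552011, plus strand), a minor fibrillar collagen known from bone and cornea, was at 17.3 and 20.8 CPM in Acly-E14 siRNA libraries and at 35.1 and 50.4 CPM in control libraries. Its log2 change was -1.16 (SE 0.19, edgeR adjusted p = 0.0077) and was called lower under every alternative run. Col5a3, the third chain of collagen V, was at 14.3 and 13.1 CPM against 19.7 and 17.5 CPM in controls. Its log2 change was -0.44 (SE 0.11, edgeR adjusted p = 0.029), a call lost when either Acly-E14 siRNA library was left out (adjusted p = 0.066 without library 1 and 0.135 without library 2), without control library 1 (0.127), with limma on log2(FPKM + 1) (0.053), with library totals alone (0.055) and with all genes kept (0.051). Col27a1, of cartilage, was at 14.96 and 13.2 CPM against 11.1 and 10.1 CPM in controls, and Col11a2, of collagen XI, at 8.24 and 8.08 CPM against 9.79 and 10.9 CPM. For both the groups were apart, yet neither was called by edgeR (adjusted p = 0.052 and 0.087, log2 changes of 0.40 and -0.34). With library totals alone (edgeR adjusted p = 0.027) and with the replicate number as a block (0.038) Col27a1 was called higher. Col11a1 had 6 and 10 counts against 1 and 10 counts in controls and did not enter the test, and Col2a1, the main collagen of cartilage, had 0 counts in every library.

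The promoter windows of 3 of these genes are shown because 2 of them rose and 1 fell within the same class. Each runs from 250 bases before to 50 bases after the start given by RefSeq on GRCm38.p6, on the gene's own strand. For Col1a2 that start, 4505618, lies downstream of the start of its GENCODE model at 4504814. Its window and matches hold only for the RefSeq start. For Col3a1 and Col24a1 both sources give the same start. Capitals mark matches, on either strand, to any of 4 motifs. The TATA box was searched as TATAAA. The box named CCAAT was searched by those letters, the GC box as GGGCGG and the AP-1 site as TGANTCA. No matches overlapped in the windows shown.
Col1a2, chr6:4505368-4505667, plus strand: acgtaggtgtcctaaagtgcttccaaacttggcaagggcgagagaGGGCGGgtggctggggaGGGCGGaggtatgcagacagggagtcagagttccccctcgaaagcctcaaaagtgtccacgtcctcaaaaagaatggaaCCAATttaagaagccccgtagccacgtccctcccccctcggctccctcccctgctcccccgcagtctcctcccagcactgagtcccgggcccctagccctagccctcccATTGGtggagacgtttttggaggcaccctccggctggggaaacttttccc
Col3a1, chr1:45311288-45311587, plus strand: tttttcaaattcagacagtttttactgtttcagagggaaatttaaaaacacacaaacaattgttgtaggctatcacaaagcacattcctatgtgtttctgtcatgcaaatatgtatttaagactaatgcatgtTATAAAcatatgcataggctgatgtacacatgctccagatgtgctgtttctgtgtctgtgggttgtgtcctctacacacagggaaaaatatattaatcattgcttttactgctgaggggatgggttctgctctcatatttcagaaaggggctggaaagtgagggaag
Col24a1, chr3:145292222-145292521, plus strand: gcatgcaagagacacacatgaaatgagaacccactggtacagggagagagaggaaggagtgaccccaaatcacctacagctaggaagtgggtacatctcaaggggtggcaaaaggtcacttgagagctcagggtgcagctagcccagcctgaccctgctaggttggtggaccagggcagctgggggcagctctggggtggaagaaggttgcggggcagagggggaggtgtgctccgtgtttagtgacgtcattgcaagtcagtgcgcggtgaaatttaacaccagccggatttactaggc
The Col1a2 window held 2 CCAAT boxes and 2 GC boxes, that of Col3a1 held 1 TATA box, and that of Col24a1 held no match to these letters. Of 32851 windows of this length in the RefSeq table, 37.4% held a CCAAT box, 35.7% a GC box, 13.6% a TATA box and 7.81% an AP-1 site. Among the 38 windows of 35 collagen genes in that table, 13, 23, 5 and 1 did. These matches are descriptions of the letters and not of bound sites.

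**Figure D2:**
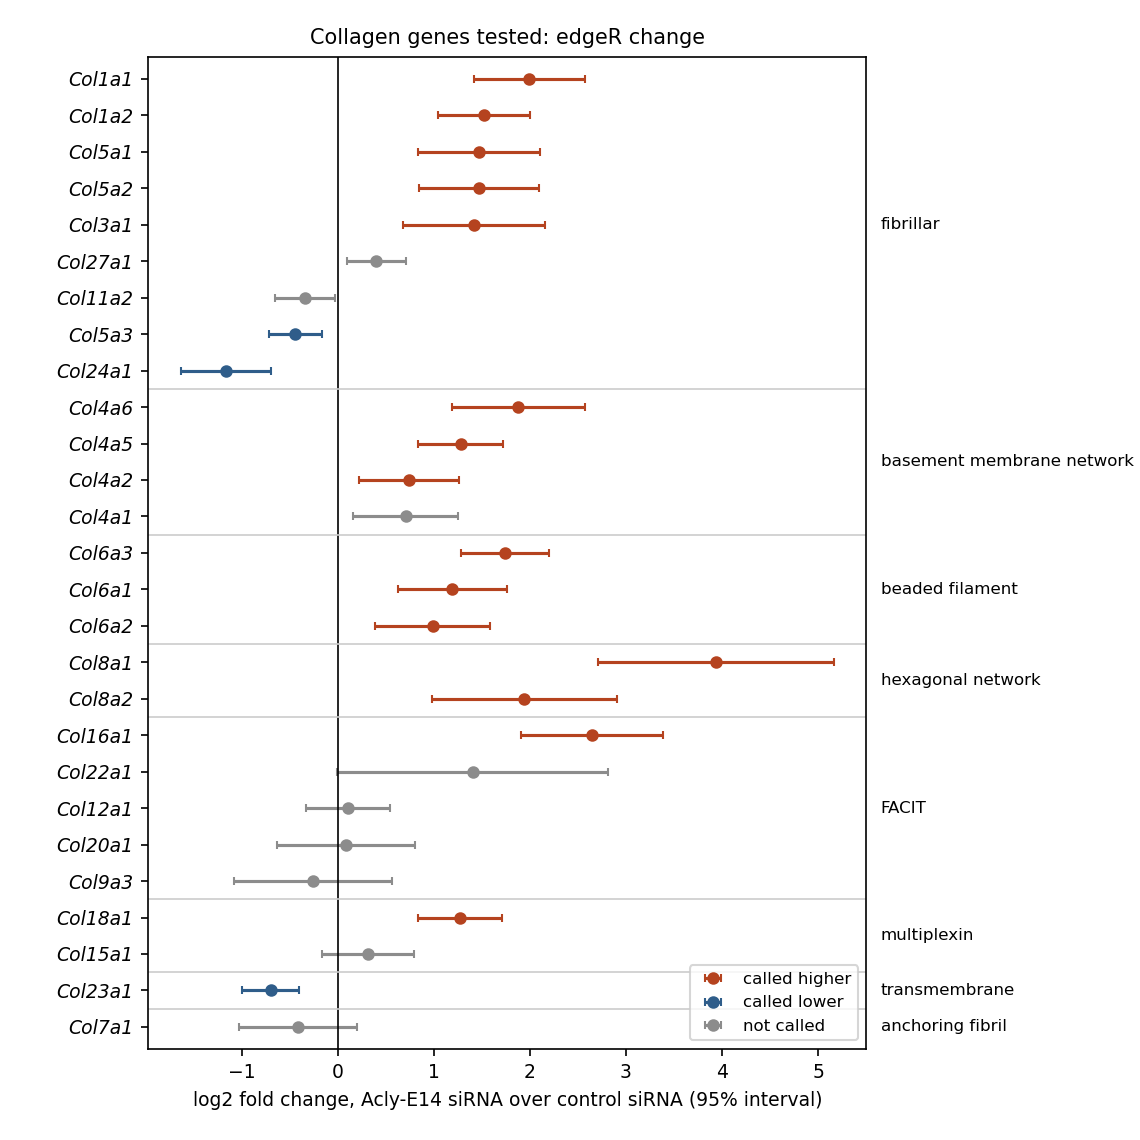
Log2 fold change of each tested collagen gene, Acly-E14 siRNA over control siRNA, with its 95% interval from edgeR; colours give the call at an adjusted p under 0.05. Col8a1 lies farthest to the right at 3.94 and Col24a1 farthest to the left at -1.16.

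Of the 4 tested genes of collagen IV, the net of basement membranes, Col4a2, Col4a5 and Col4a6 were higher and Col4a1 was not called. Col4a1 was at 200 and 252 CPM in Acly-E14 siRNA libraries and at 107 and 170 CPM in control libraries. Its log2 change was 0.71, with a 95% interval of 0.16 to 1.25, and it missed the threshold (edgeR adjusted p = 0.056). Col4a2 was at 132 and 181 CPM against 76.4 and 111 CPM in controls (log2 change 0.74, SE 0.21, edgeR adjusted p = 0.043), a call lost without Acly-E14 siRNA library 2 (adjusted p = 0.165) or control library 1 (0.167), without a filter on low counts (0.10), with limma on log2(FPKM + 1) (0.069) and with DESeq2 (0.085). For neither gene did the groups overlap.

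The X-linked chains of collagen IV had larger fold changes, though the difference between chains was not tested. Col4a5, mutated in Alport syndrome in humans, was at 40.4 and 49.8 CPM in Acly-E14 siRNA libraries and 15.5 and 21.6 CPM in control libraries (log2 change 1.28, SE 0.18, edgeR adjusted p = 0.0050). Its neighbour Col4a6 was at 11.9 and 17.0 CPM against 2.93 and 4.86 CPM in controls (log2 change 1.88, SE 0.28, edgeR adjusted p = 0.0060). Col4a3 had 1 and 2 counts against 1 and 0 in controls, and Col4a4 had 0 in every library.

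Genes of collagen IV lie head to head in pairs, and the pair Col4a1 and Col4a2 is shown because both chains leave nearly the same point and moved together. On chromosome 8 their RefSeq starts are 21 bases apart and the 2 windows share 78 bases, read on opposite strands. In the GENCODE models their exons share 22 bases. Capitals mark the same motifs.
Col4a1, chr8:11312777-11313076, minus strand: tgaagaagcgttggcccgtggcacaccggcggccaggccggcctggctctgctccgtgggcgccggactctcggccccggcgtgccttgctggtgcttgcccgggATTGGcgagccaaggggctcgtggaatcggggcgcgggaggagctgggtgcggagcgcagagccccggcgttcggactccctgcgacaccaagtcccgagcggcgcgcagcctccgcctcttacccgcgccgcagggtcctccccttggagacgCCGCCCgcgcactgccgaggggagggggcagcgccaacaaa
Col4a2, chr8:11312555-11312854, plus strand: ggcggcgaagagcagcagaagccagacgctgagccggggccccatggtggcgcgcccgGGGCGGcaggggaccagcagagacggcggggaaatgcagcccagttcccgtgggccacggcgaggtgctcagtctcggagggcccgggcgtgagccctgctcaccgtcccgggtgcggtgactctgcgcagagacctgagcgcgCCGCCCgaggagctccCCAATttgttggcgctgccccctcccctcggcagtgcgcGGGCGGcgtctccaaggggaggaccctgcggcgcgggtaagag
The Col4a1 window held 1 CCAAT box and 1 GC box, and the Col4a2 window 1 CCAAT box and 3 GC boxes. The starts of Col4a5 and Col4a6 lie 1343 bases apart.

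All 3 tested genes of collagen VI, the beaded filament that human macrophages have been described to secrete, were higher. Col6a1 was at 132 and 167 CPM in Acly-E14 siRNA libraries and 49.97 and 80.7 CPM in control libraries (log2 change 1.19, SE 0.23, edgeR adjusted p = 0.013). Col6a2 was at 96.8 and 129 CPM against 43.2 and 70.7 CPM in controls (log2 change 0.99, SE 0.25, edgeR adjusted p = 0.028). Col6a3, the long chain, was at 27.8 and 36.2 CPM against 8.20 and 10.9 CPM in controls (log2 change 1.74, SE 0.19, edgeR adjusted p = 0.0024). Without Acly-E14 siRNA library 2 only Col6a3 of these remained called, with adjusted p-values of 0.051 for Col6a1 and 0.111 for Col6a2, and for Col6a2 the value was 0.081 without control library 1 and 0.071 without a filter on low counts. The related Col6a4 had 9 and 6 counts against 3 and 10 counts in controls, while Col6a5 and Col6a6 each had 2 counts over all libraries.

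The largest fold change of the tested collagens was that of Col8a1 (chromosome 16, 57624258 to 57754737, minus strand). Collagen VIII is a short-chain collagen that forms hexagonal lattices, known from vessel walls and the back of the cornea. Col8a1 had 104 and 125 counts in Acly-E14 siRNA libraries against 2 and 12 counts in control libraries, or 4.76 and 5.71 CPM against 0.0993 and 0.561 CPM. Its log2 change was 3.94 (SE 0.50, edgeR adjusted p = 0.0037) and was called without each of the 4 libraries in turn. Col8a2, the other chain, was at 2.84 and 3.84 CPM against 0.546 and 1.17 CPM in controls (log2 change 1.94, SE 0.39, edgeR adjusted p = 0.014), a call lost without Acly-E14 siRNA library 2 (adjusted p = 0.080) or control library 1 (0.055). Col10a1, the collagen of hypertrophic cartilage, had 0 counts.

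Among the fibril-associated collagens 1 of 5 tested genes was called, beside 33.2% of all genes tested. Col16a1, which links fibrils to the surrounding matrix, was at 15.3 and 15.8 CPM in Acly-E14 siRNA libraries and 1.54 and 3.37 CPM in control libraries (log2 change 2.65, SE 0.30, edgeR adjusted p = 0.0028). Its libraries within the Acly-E14 siRNA group lay close together, and both far above the controls. In contrast, Col12a1, which coats collagen I fibrils, was at 10.1 and 13.7 CPM against 10.3 and 11.7 CPM in controls, and the groups overlapped (log2 change 0.11, 95% interval -0.33 to 0.54). Col20a1 was at 1.33 and 1.28 CPM against 1.34 and 1.12 CPM in controls, and Col9a3 at 2.33 and 1.32 CPM against 2.04 and 2.34 CPM. Both overlapped too. Col22a1, of tissue junctions, was at 0.641 and 0.913 CPM against 0.447 and 0.140 CPM in controls and was not called (edgeR adjusted p = 0.111). Col9a3 shares 234 exon bases with Tcfl5 on the opposite strand, so its low counts are less certain. Tcfl5 had 9 and 10 counts against 1 and 0 in controls, fewer than the 51 and 29 against 41 and 50 of Col9a3.

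The remaining classes were small. Col18a1 encodes the basement membrane collagen that is cut to release endostatin. It was at 18.9 and 18.5 CPM in Acly-E14 siRNA libraries and 6.36 and 9.17 CPM in control libraries (log2 change 1.27, SE 0.18, edgeR adjusted p = 0.0049). Its relative Col15a1 was at 6.95 and 7.95 CPM against 5.07 and 6.92 CPM in controls, a log2 change of 0.31 with a 95% interval of -0.17 to 0.79 (edgeR adjusted p = 0.268). Col23a1 (chromosome 11, 51289920 to 51583918, plus strand), a collagen anchored in the cell membrane, was at 10.3 and 10.5 CPM against 18.1 and 15.6 CPM in controls. Its log2 change was -0.70 (SE 0.12, edgeR adjusted p = 0.0088) and was called lower in every alternative fit at an adjusted p under 0.05, though its change is less than 1 on the log2 scale. Col7a1, which forms the anchoring fibrils of skin, was at 2.33 and 1.78 CPM against 2.63 and 2.85 CPM in controls and was not called (edgeR adjusted p = 0.253).

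Several collagens were near or below what these libraries can show. The genes with 0 counts in every library were Col2a1, Col4a4, Col9a1, Col10a1, Col13a1 and Col26a1, which allows at most 0.137 to 0.143 CPM per library, a limit of 3 counts that covers counting error only. Col9a2 had 0 and 8 counts in Acly-E14 siRNA libraries and 0 and 0 in controls. Col14a1, a fibril-associated collagen of dermis and tendon, had 2 and 9 counts against 3 and 5 counts in controls and was not tested. Col4a3, Col6a5, Col6a6, Col17a1, Col19a1 and Col28a1 had between 2 and 7 counts each over all libraries, and Col25a1 had 1.

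Levels of different collagens can be compared only per length, and FPKM (fragments scaled by gene length and library size) recomputed from the counts and the gene lengths of the table served for this. Col1a1 ranked first in both groups, at 123 and 161 FPKM in Acly-E14 siRNA libraries and 25.5 and 41.6 FPKM in control libraries. Col1a2 came next, at 65.5 and 79.9 FPKM against 18.9 and 28.7 FPKM in controls, although the length behind its FPKM is 16209 bases, against 6934 for Col1a1, and a shorter model would raise it. Col6a1 (29.8 and 38.4 FPKM) and Col4a1 (29.0 and 37.1 FPKM) did not differ beyond their spread in Acly-E14 siRNA libraries. Col24a1 stood in place 12 there and in place 10 among controls, at 1.84 and 2.24 FPKM against 3.49 and 5.12 FPKM.

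Chains of one collagen type were also compared within each library, where scaling cancels. The ratio of Col5a1 to Col5a2 counts was 0.471 and 0.467 in Acly-E14 siRNA libraries and 0.462 and 0.472 in control libraries, so these chains stayed near one ratio while their levels differed. Col4a1 to Col4a2 was 1.52 and 1.39 against 1.40 and 1.53 in controls, and the groups overlapped. The ratio of Col1a1 to Col1a2, in contrast, was 0.805 and 0.860 in Acly-E14 siRNA libraries and 0.577 and 0.621 in control libraries. The exact 95% counting intervals of the groups did not touch (0.789 to 0.821 and 0.845 to 0.875, against 0.554 to 0.601 and 0.602 to 0.641). Those of the 2 libraries within each group did not touch either. Libraries of one condition thus differed by more than counting error, and these intervals cannot test the groups.

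For other pairs the ratios of the groups were also apart. Col6a3 to Col6a2 was 0.287 and 0.281 in Acly-E14 siRNA libraries against 0.190 and 0.154 in controls, and Col6a1 to Col6a2 was 1.36 and 1.297 against 1.16 and 1.14. Col4a5 to Col4a6 was 3.41 and 2.93 against 5.29 and 4.44 in controls. For these last 2 pairs some counting intervals overlapped between the groups. Acly-E14 siRNA library 2 (1.235 to 1.363) and control library 1 (1.056 to 1.269) overlapped for Col6a1 to Col6a2, and Acly-E14 siRNA library 1 (2.96 to 3.93) and control library 2 (3.58 to 5.55) for Col4a5 to Col4a6. Col8a1 to Col8a2 was 1.68 and 1.49 against 0.182 and 0.480 in controls, where the lower ratio rests on 2 counts of Col8a1. None of these differences can pass an exact permutation test with 2 libraries a group.

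**Figure D3:**
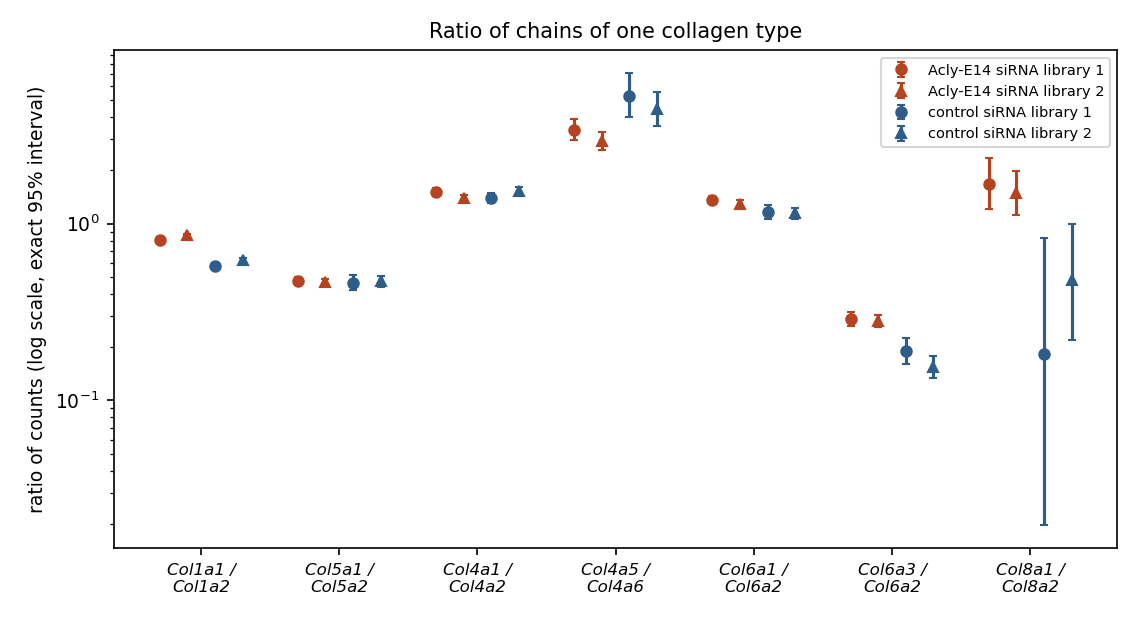
Ratio of counts between chains of one collagen type in each library, on a log axis, with exact 95% intervals that cover counting error only. Col5a1 to Col5a2 stays between 0.462 and 0.472 in all 4 libraries, while Col1a1 to Col1a2 is 0.805 and 0.860 in the Acly-E14 siRNA libraries and 0.577 and 0.621 in the controls.

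Genes that modify and fold collagen chains were mostly higher. Of 21 tested, 13 were higher and 2 lower, with a median log2 change of 0.86. Of all genes tested, 17.3% were higher and 15.9% lower. Colgalt1, which adds galactose to hydroxylysine of collagen, was at 238 and 232 CPM in Acly-E14 siRNA libraries and 106 and 100.8 CPM in control libraries (2.28-fold, edgeR adjusted p = 0.00058). It shares 495 exon bases with Unc13a on the opposite strand, which had 12 and 18 counts against 7 and 0 in controls. The prolyl hydroxylase subunit genes P4hb and P4ha2 rose 1.56-fold and 1.89-fold. P4ha1, of the catalytic subunits the one with the highest CPM, was named after its values were seen. It was at 254 and 247 CPM against 265 and 261 CPM in controls and was not called (edgeR adjusted p = 0.335). P4ha3, another catalytic subunit of that enzyme, had 34 and 48 counts against 1 and 2 counts in controls. That is a ratio of 27.6 per total, and counting error alone puts it between 9.13 and 137 (exact 95% interval). Serpinh1, the collagen chaperone HSP47, was named after its values were seen. It was at 159.5 and 317 CPM against 97.2 and 151 CPM in controls, with Acly-E14 siRNA library 2 well above the other 3, and was not called (edgeR adjusted p = 0.088).

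Genes of collagen export, trimming and cross-linking moved the same way, with 11 of 17 tested higher, 1 lower and a median log2 change of 1.31. The shares over all genes tested were 17.3% higher and 15.9% lower. Pcolce, the enhancer of the enzyme that trims the procollagen C end, was at 23.6 and 34.4 CPM in Acly-E14 siRNA libraries and 3.43 and 4.63 CPM in control libraries (7.17-fold, edgeR adjusted p = 0.0014). It shares 112 exon bases with Fbxo24, which had 4 and 0 counts against 0 and 0 in controls. Adamts14, a procollagen N-proteinase, rose 3.76-fold, and the lysyl oxidase-like genes Loxl3 and Loxl1 rose 5.33-fold and 3.74-fold. Lox itself, named after its values were seen, had a higher CPM than these and did not rise. It was at 128.5 and 151 CPM against 151.5 and 163 CPM in controls and was not called (edgeR adjusted p = 0.201). Loxl3 shares 535 exon bases with Htra2 on the opposite strand. Htra2 had 950 and 922 counts against 709 and 670 in controls, more than the 303 and 344 against 52 and 63 of Loxl3.

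Small leucine-rich proteoglycans and other fibril partners had 7 of 11 tested genes higher and 0 lower (median log2 change 1.84). Over all genes tested 17.3% were higher and 15.9% lower. Fmod (fibromodulin), which binds collagen I fibrils, had 8.88 and 8.95 CPM in Acly-E14 siRNA libraries against 0.199 and 0.187 CPM in control libraries (log2 change 5.49, SE 0.25, edgeR adjusted p = 0.00058), from 4 and 4 counts in controls. Ogn (osteoglycin) rose 9.94-fold, from 9 and 22 counts in controls, and Dcn (decorin) 2.20-fold. Bgn (biglycan) rose 8.03-fold, to 283 and 307 CPM in Acly-E14 siRNA libraries, against 26.6 and 46.8 CPM in control libraries.

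Receptors and degrading enzymes were split. Of 10 tested collagen receptor and uptake genes, 6 were higher and 2 lower, beside 17.3% and 15.9% of all genes tested. Leaving out Acly-E14 siRNA library 1 or control library 1 gave 2 higher genes, and leaving out Acly-E14 siRNA library 2 gave 3. Without Acly-E14 siRNA library 2, or without either control library, 1 was lower. The paralogous uptake receptors went opposite ways. Mrc2 (Endo180, of fibroblasts and other mesenchymal cells) was at 14.6 and 18.1 CPM in Acly-E14 siRNA libraries and 4.67 and 5.47 CPM in control libraries (3.22-fold, edgeR adjusted p = 0.0020). Mrc1 (the macrophage mannose receptor) fell (0.644 of the control level, edgeR adjusted p = 0.0017). Itga2, a collagen-binding integrin chain, rose 4.63-fold, from 12 and 13 counts in controls. Its partner chain Itgb1 was at 0.838 of the control level (edgeR adjusted p = 0.022). That call of Itgb1 was lost without Acly-E14 siRNA library 2, control library 1 or control library 2.

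Of 13 tested degradation genes, 6 rose and 5 fell (median log2 change 0.19), and the count of lower genes was 2 whichever library was left out. Among all genes tested 17.3% were higher and 15.9% lower. The 6 rises pool inhibitors with enzymes, whereas the 5 genes that fell were all enzymes: Ctsk (cathepsin K), Mmp13 (collagenase 3), Mmp14, Ctsb and Ctsl. Ctsk was at 260 and 234 CPM in Acly-E14 siRNA libraries and 702 and 637 CPM in control libraries (0.369 of the control level, edgeR adjusted p = 0.00073), and Mmp13 was at 278 and 283 CPM against 436 and 460 CPM in controls (0.626, adjusted p = 0.0013). Mmp14, Ctsb and Ctsl, named after their values were seen, had log2 changes of -0.25, -0.32 and -0.22 (edgeR adjusted p = 0.027, 0.016 and 0.0404). With library totals alone Mmp14 and Ctsl were not called (edgeR adjusted p = 0.057 and 0.105). The inhibitor genes Timp1 and Timp2 rose 5.52-fold and 2.59-fold. Timp3, a further inhibitor gene named after its values were seen, was called higher too (edgeR adjusted p = 0.026). Enzymes rose as well, here named after their values were seen: the gelatinases Mmp2 and Mmp9 rose 4.21-fold and 1.54-fold and the stromelysin Mmp3 rose 6.70-fold (edgeR adjusted p = 0.0013, 0.012 and 0.012). Mmp3 had 44 and 63 counts against 3 and 12 in controls, and its call was lost without Acly-E14 siRNA library 2. The lists of collagen partner genes were chosen with earlier results of these libraries known, and fibroblast and stroma markers moved with these rises (median log2 change 1.44). That marker list shares Dcn, Lum, Loxl1 and Fap with the partner lists, and the macrophage list shares Mrc1.

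The cells that normally make collagen were looked for by markers other than collagens. In the fibroblast and stroma list the largest contributors were Pdgfra, Dcn and Fbln2, with 84.5% and 86.2% of its counts in Acly-E14 siRNA libraries and 91.1% and 89.9% in controls. Thy1, a surface marker of fibroblasts, was at 11.6 and 11.5 CPM in Acly-E14 siRNA libraries and 2.19 and 2.43 CPM in control libraries (4.97-fold), and Prrx1, a mesenchymal transcription factor, rose 4.73-fold. Pi16, of a subset of fibroblasts, had 0 counts in every library. Set against the summed counts of this list, the collagen counts of the groups overlapped. That sum follows Pdgfra, Dcn and Fbln2, which rose 2.70-fold, 2.20-fold and 2.74-fold. Other tested markers of the list ran from 1.14-fold (Fap, not called) to 5.46-fold (Pdgfrb), so the ratio does not hold for each marker. There were 3.85 and 3.99 collagen counts per marker count in Acly-E14 siRNA libraries and 3.72 and 4.24 in control libraries, or 3.92 ± 0.0957 and 3.98 ± 0.370 (SD, n = 2 each).

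Markers of other collagen-making cells were uneven. For reading the counts below, 17.3% of all genes tested were called higher and 15.9% lower. Of 5 tested pericyte and smooth muscle markers 4 were higher, and the 9 on the list summed to 238 and 319 CPM in Acly-E14 siRNA libraries and 107 and 147 CPM in control libraries. Of 3 tested endothelial markers 0 were higher and 2 lower, and Cldn5, Emcn and Erg had 0 counts. Of 5 tested osteoblast and marrow stroma markers 2 were higher and 2 lower, with Bglap and Ibsp at 0. Chondrocyte markers summed to 13.8 and 15.3 CPM against 4.87 and 5.94 CPM in controls, most of it Sox9, with Matn1, Hapln1 and Chad at 0. Of 5 tested epithelial markers 0 were higher and 3 lower. Of 10 macrophage markers 2 rose and 5 fell, and their median log2 change was -0.24. The part of these cell types in each collagen's change was not tested.

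**Figure D4:**
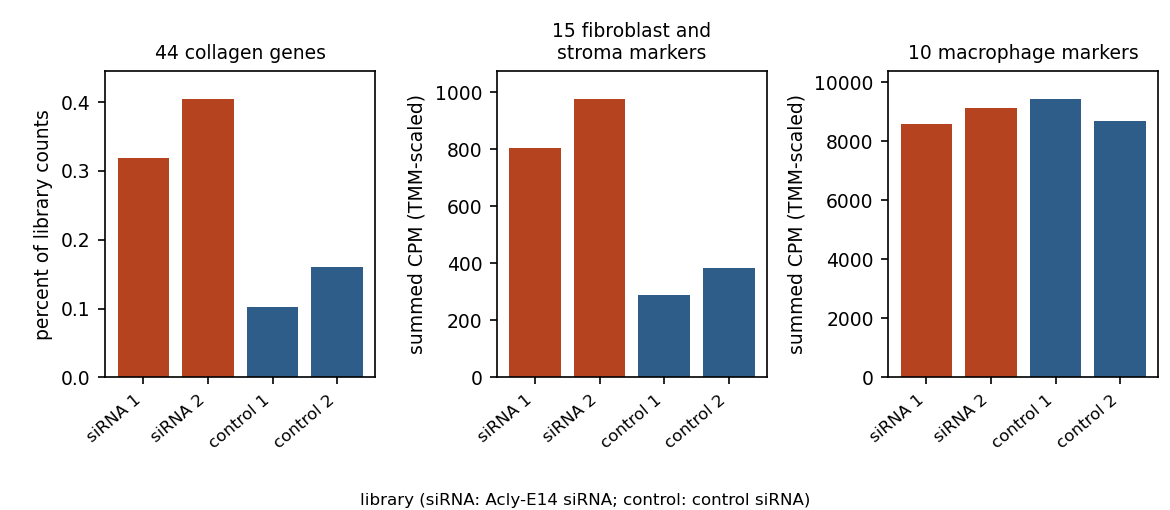
Percent of library counts in the 44 collagen genes, and summed CPM of 15 fibroblast and stroma markers and of 10 macrophage markers, in each library; bars are single libraries and start at 0. Collagens reach 0.318% and 0.404% in the Acly-E14 siRNA libraries against 0.103% and 0.1598% in controls, and fibroblast markers 806 and 976 CPM against 288 and 385 CPM. The summed macrophage markers overlap, though 2 of the 10 were called higher and 5 lower.

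Within each group the libraries also differed, and in one direction. Control library 2 exceeded control library 1 for 22 of the 27 tested collagens, among them all 15 that rose, by a median ratio of 1.64 for those 15. Acly-E14 siRNA library 2 exceeded library 1 for 14 of the 15, by a median ratio of 1.27, the exception being Col18a1. The summed CPM of the fibroblast and stroma markers had the same order, though Thy1, Prrx1, Fap and Tcf21 were lower in Acly-E14 siRNA library 2 than in library 1. Among the 3 genes that fell, Col5a3 and Col23a1 were lower in control library 2 than in control library 1, while Col24a1 was higher there, by a ratio of 1.44. When each library was left out in turn, the 15 rises and 3 falls kept their direction, but some of their calls were lost. Fewer genes were also called over all genes tested in these fits, which leave a group with a single library.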

How the data were processed

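RNA was measured by sequencing in 4 libraries. Per Ensembl gene the deposited table holds counts, whole numbers and not normalized per the file headers, and FPKM values per library made by the authors. The submitters' processing notes name HISAT2, StringTie 1.3.0, edgeR and mm10. Which program counted the reads, with what strand setting and gene models, is not given in the sources used here. A further value column (1 in all) lacks a replicate number in its name and was not used.

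For 34267 of 34745 IDs a symbol was found in the reference gene table. Biotypes, coordinates and exon overlaps were those of GENCODE M21 (mm10). Counts were tested in R 4.3.3 with edgeR 4.0.16 (filterByExpr with a minimum count of 10, TMM factors, quasi-likelihood F test, no covariates), with Benjamini-Hochberg adjustment over 13108 genes, on samples grouped by their titles. SE values are those implied by the F statistic. The script was tested on simulated data. FPKM values were recomputed from the counts with the gene length implied by the deposited FPKM. Of 49103 FPKM values above 0 in the columns used, 49103 matched the recomputed value within a relative tolerance of 0.001. Each length came from the library with most counts for that gene, where the match is fixed in advance. Only the values of the other libraries check it. Shares of counts have Wilson intervals and chain ratios exact 95% intervals, which cover counting error only.

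Alternatives were a replicate block, each library left out in turn, DESeq2's size factors, library totals alone, DESeq2 1.42.0, no filter, limma 3.58.1 on log2(FPKM + 1), and other thresholds. Every tested collagen is described, and from each partner list the 4 genes of smallest p. The members and lists were chosen with earlier results of these data known.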

Additional observations from a re-analysis of the deposited data

How the results depend on the processing

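Across the 27 tested collagens and 10 alternative fits, 245 of 270 results kept their direction and their side of the threshold, 3 changed sign with no call in either fit, 18 lost a call (in 6 genes) and 4 gained one (in 2 genes). The 3 are Col12a1 (0.31 to -0.13 across single libraries left out, negative without Acly-E14 siRNA library 2), Col9a3 (-0.72 to 0.092, positive without Acly-E14 siRNA library 2) and Col20a1 (0.21 to -0.043, negative without control library 2). With other settings the count of higher collagens was 10 to 17 and that of lower ones 1 to 4, where 1 is the count beyond 1 on the log2 scale. It left 1 fibrillar gene and 0 transmembrane genes lower. Lower fibrillar genes numbered 1 with library totals alone, without a filter and with limma on log2(FPKM + 1), and 1 to 2 when a library was left out. Leaving out a library gave 1 to 3 higher beaded filament genes and 1 to 2 higher hexagonal network genes. Without Acly-E14 siRNA library 2 the counts over all genes were 1045 higher and 1043 lower, and of all called genes 52.0% were higher with TMM factors, 65.8% with library totals alone and 66.0% with limma. With the replicate number as a block, 17 collagens were higher and 3 lower. Nothing in the labels says that equal numbers pair libraries, and their deviations correlated at 0.144 across 13108 genes. Col4a1 was called higher with the block (edgeR adjusted p = 0.0033) and without control library 2 (0.016), and Col27a1 with the block (0.038) and with library totals alone (0.027). In the partner lists, the processing list had 1 lower gene with limma and 0 to 2 without a library. Receptors had 2 higher without a filter and 3 with limma, where 1 was lower, and 2 to 4 higher and 1 to 2 lower without a library. Fibril partners had 4 to 7 higher without a library. Degradation genes had 3 lower with library totals alone and with limma, and 2 without any one library. The share of counts in collagen genes was 0.127% in Acly-E14 siRNA and 0.0631% in control libraries without Col1a1, Col1a2 and Col3a1. The cause of these moves was not tested. Depth limits Col8a1, Col8a2, Col20a1 and Col22a1, which had under 30 counts in each control library. Col22a1 had 14 and 20 counts in Acly-E14 siRNA libraries against 9 and 3 in controls.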
